A study of Mus musculus with 5 samples.

Results

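The 10 genes described here are 9 chemokines (Ccl2, Ccl3, Ccl4, Ccl6, Ccl7, Ccl9, Cxcl1, Cxcl2 and Cxcl12) and Cxcr4, the receptor of Cxcl12. They were taken by symbol from 14161 genes listed in any of 5 RNA-seq libraries, and all 10 were listed. The libraries hold total RNA of cultured bone mesenchymal stem cells from the femur marrow of C57BL/6 mice 6 to 8 weeks old, grown in α-MEM with 12% serum and used at passages 1 to 3. There are 3 Bmal1-knockout libraries (knockout 1, 2 and 3) and 2 wild type libraries (wild type 1 and 2). Genotype is the only difference between the groups that the labels give, with age and passage stated only as ranges common to all. The study asks which genes BMAL1, a transcription factor of the circadian clock encoded by Arntl, regulates in these cells. How the deletion was made, and whether libraries come from separate mice or cultures, is not stated in the labels, so p-values measure only the spread between these libraries.

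Chemokines are small secreted proteins that steer leukocytes through receptors coupled to G proteins. CC chemokines such as Ccl2 chiefly attract monocytes and macrophages, and the CXC chemokines Cxcl1 and Cxcl2 attract neutrophils. Cxcl12 differs from them in being made steadily by marrow stromal cells, where it holds blood stem cells and B cell precursors that carry Cxcr4.

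The members were sorted by the cells known to make them. Ccl3, Ccl4, Ccl6 and Ccl9 are made mostly by macrophages and other myeloid cells, Cxcl12 by stromal cells, and Ccl2, Ccl7, Cxcl1 and Cxcl2 by both when activated. In the knockout libraries Cxcl12 rose 2.49-fold, while Ccl9 fell 1.57-fold and Cxcr4 fell 4.25-fold. These were the calls among 6 members with enough counts to test (1 higher, 2 lower). Of all 3710 tested genes 8.19% were called higher and 8.14% lower, at an edgeR adjusted p under 0.05. Of the 6 tested members, Cxcl12 and Ccl7 were above both wild type libraries in every knockout library and Ccl6, Ccl9 and Cxcr4 below both, as was so for 21.2% and 21.6% of the tested genes. Cxcl12, Ccl6 and Ccl9 exceeded the minimum of the filter on low counts in all 5 libraries, Ccl2 and Ccl7 in the knockout and 1 wild type library, and Cxcr4 in the wild type libraries alone; Ccl3, Ccl4, Cxcl1 and Cxcl2 did not pass it.

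The libraries are shallow, with 211623 to 281990 expected counts each. A level in CPM is counts per 1e6 scaled counts, and a count of 0 allowed up to 12.1 to 15.9 CPM. FPKM is also scaled by gene length and is used where genes are compared. Arntl had 4, 1 and 2 counts in the Bmal1-knockout libraries compared with 5 and 0 in the wild type pair, so it does not check the labels. Markers of other cells than the labelled one were present. The 20 macrophage markers, all listed, summed to 11005 to 12323 CPM in the knockout, compared with 18065 to 18590 in the wild type libraries. Of the 19 tested 10 were lower, beside 8.14% of all tested genes. The 15 stromal markers, also all listed, summed to 15537 to 16887 and 6341 to 6357 CPM, and 7 of the 12 tested were higher, beside 8.19% of all tested genes. However, Thy1, a defining marker of mesenchymal stem cells, had 5 counts in all. Matrix genes weigh heavily in that sum, with Col3a1 alone at a mean of 4882 CPM in the knockout and 1874 in the wild type. The stromal receptors Pdgfra (log2 fold change -0.34, edgeR adjusted p = 0.593) and Pdgfrb (0.15, adjusted p = 0.872) did not pass. Of the neutrophil markers S100a9, Ngp, Ltf, Elane, Mpo and Ly6g were at 0 in every library, as were Cd3e, Cd3g, Trbc1, Trbc2 and Klrb1c among the lymphocyte markers. Summed neutrophil markers came to 19.2 to 56.7 CPM in the knockout, compared with 65.8 and 90.4 in the wild type, lymphocyte markers to at most 33.6, endothelial markers to 128 to 178 and 165 to 197, and megakaryocyte and platelet markers, mostly Pf4, to 207 to 243 and 377 to 399. In such bulk RNA fewer cells of a type and less RNA per cell cannot be told apart.

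Promoter sequence is shown for the ligand and receptor of the pair, because the study deletes a factor that binds the E-box CACGTG, and for the members with a match to a kappa-B site, the sequence bound by NF-kB, a main activator of inflammatory chemokines. RefSeq promoters (GRCm38.p6, the 250 bases before the start) matched 7 of the 10 members, with none for Ccl2, Ccl4 and Ccl7. The E-box CACGTG, which reads the same on both strands, was in none of the 7, against 6.02% of 32851 promoters in the table. A kappa-B consensus on either strand was in 3.90% of them and in Cxcl1, Cxcl2 and Ccl9. Below, the Cxcl12 (chr6:117168285-117168534, plus strand) and Cxcr4 (chr1:128592300-128592549, minus strand) promoters are whole and hold neither motif. The others are 60-base windows with the kappa-B match in capitals, in Cxcl1 and Cxcl2 2 overlapping matches, 1 on each strand. They lie at chr5:90891145-90891204 (Cxcl1, plus strand), chr5:90903773-90903832 (Cxcl2, plus strand) and chr11:83578637-83578696 (Ccl9, minus strand).
Cxcl12: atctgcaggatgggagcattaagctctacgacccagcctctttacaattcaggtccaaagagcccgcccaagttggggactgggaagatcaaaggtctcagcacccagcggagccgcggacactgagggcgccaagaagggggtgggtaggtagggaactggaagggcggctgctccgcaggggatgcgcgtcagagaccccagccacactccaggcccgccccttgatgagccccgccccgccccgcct
Cxcr4: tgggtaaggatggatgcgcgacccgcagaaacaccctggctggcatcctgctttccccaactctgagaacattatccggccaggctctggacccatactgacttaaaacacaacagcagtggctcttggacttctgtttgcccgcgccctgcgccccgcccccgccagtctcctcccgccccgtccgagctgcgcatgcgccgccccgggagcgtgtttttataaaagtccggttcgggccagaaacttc
Cxcl1: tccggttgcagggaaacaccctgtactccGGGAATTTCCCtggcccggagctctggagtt
Cxcl2: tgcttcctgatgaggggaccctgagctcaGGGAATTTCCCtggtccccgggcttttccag
Ccl9: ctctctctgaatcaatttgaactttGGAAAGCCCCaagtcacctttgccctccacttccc
The capitals of Cxcl1 and Cxcl2 are the same 11 letters, and start 71 and 97 bases before the respective start. A match describes letters only, and the absence of one concerns this window only.

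**Figure D1:**
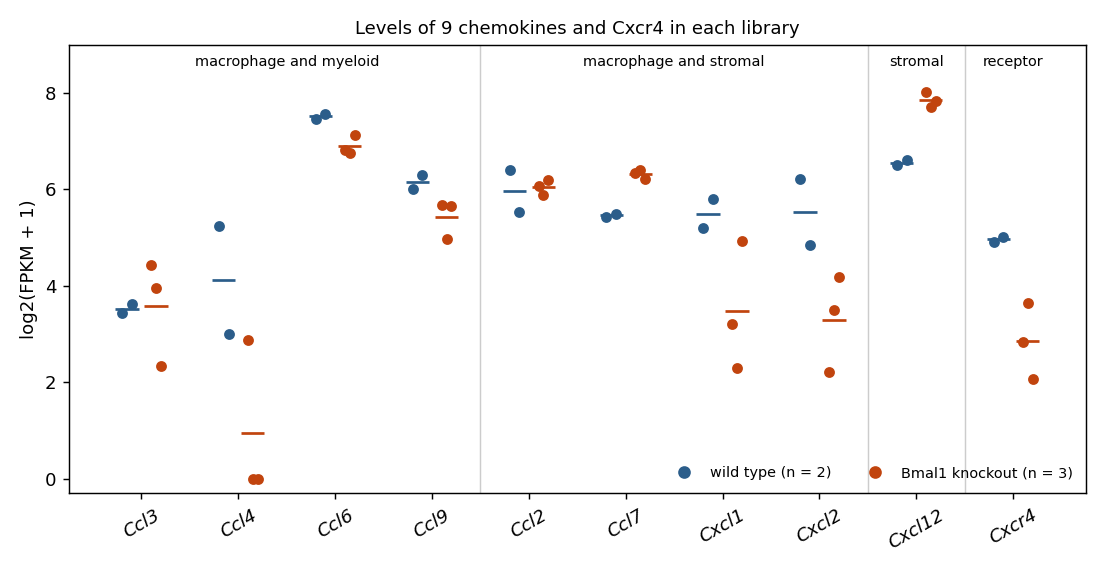
Level of each gene, as log2(FPKM + 1) on the vertical axis, in the 2 wild type (blue) and 3 Bmal1-knockout libraries (orange); each point is a library and each bar the group mean, with genes grouped by the cells that make them. Cxcl12, the 1 stromal ligand, and Ccl7 are above both wild type libraries in all 3 knockout libraries. Ccl6, Ccl9 and Cxcr4 are below both in all 3, as are Ccl4, Cxcl1 and Cxcl2 on counts too low for edgeR.

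Cxcl12, the stromal ligand (Entrez gene 20315, chromosome 6, 117168535 to 117181368, mm10 as in RefSeq), was at 260, 209 and 227 FPKM in the Bmal1-knockout libraries compared with 90.0 and 95.9 in the wild type pair. Every knockout library lay above both wild type libraries, and the lowest of them was well above the higher wild type library. This was 726 ± 66.4 CPM (SD, n = 3) and 292 ± 7.82 (n = 2), and edgeR put the log2 fold change at 1.31 (SE 0.17, adjusted p = 1.16e-12). Its summed counts were 484 in the knockout and 117 in the wild type. The files list 3 RefSeq transcripts for it, and their mean length, weighted by the authors' estimates, was 2255 to 2344 bases in the knockout, compared with 2343 and 2362 in the wild type. The call was kept with each library left out and under every other alternative listed in the closing section.

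Cxcr4, its receptor (Entrez gene 12767, chromosome 1, 128588199 to 128592299), went the other way. It had 3, 6 and 2 counts in the Bmal1-knockout libraries compared with 15 and 14 in the wild type pair, or 6.12, 11.5 and 3.22 against 29.2 and 31.4 FPKM. The groups did not overlap, and the highest knockout library had fewer counts than either wild type library. The log2 fold change was -2.09 (SE 0.62, edgeR adjusted p = 0.00752). Cxcr4 passed the filter through the wild type libraries alone, so at its knockout level it had to be higher in the wild type to be tested; with no filter its adjusted p was 0.00778. Leaving out wild type 1 (log2 fold change -2.14, adjusted p = 0.217) or wild type 2 (-2.05, adjusted p = 0.245) ended the call. The exact Poisson ratio of summed counts was 0.229 with a 95% interval of 0.103 to 0.471; this and all such intervals cover counting error only, since reads copied in library preparation are not independent.

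The ratio of ligand to receptor, per length, was 42.5, 18.2 and 70.6 in the Bmal1-knockout libraries compared with 3.08 and 3.05 in the wild type pair. All 3 knockout ratios exceeded both wild type ratios, and they spread more widely; the receptor there rests on 2 to 6 counts a library. On the log2 scale the knockout ratio was higher by 3.63, or 12.4-fold. An exact permutation test over libraries, two-sided on the absolute difference, gave p = 0.1, the smallest that 3 against 2 libraries allow, so it cannot reach 0.05. Ackr3, the scavenger receptor that also takes up Cxcl12, had 2, 2 and 0 counts against 1 and 1, too few for a comparison.

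**Figure D2:**
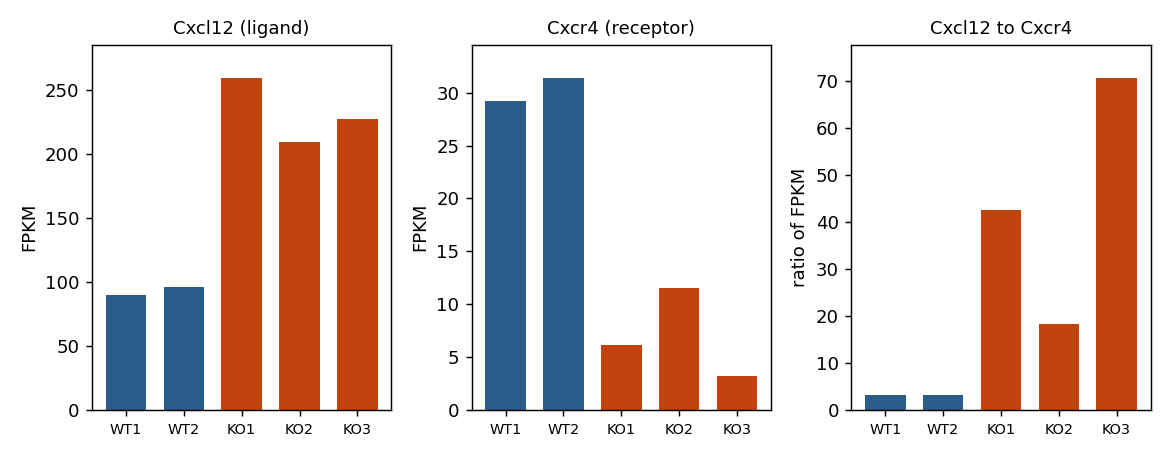
Cxcl12, Cxcr4 and the ratio of the ligand to the receptor, in FPKM or as a ratio of FPKM on the vertical axes, with 1 bar per library (wild type blue, knockout orange). The ligand is higher and the receptor lower in each knockout library, and the ratio runs from 18.2 to 70.6 there against 3.05 and 3.08 in the wild type.

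Among the ligands made mostly by macrophages, Ccl6 and Ccl9 were the abundant ones. Both are mouse CC chemokines that act on Ccr1 and are made steadily by myeloid cells, and their genes are neighbours on chromosome 11, 9.25 kb apart on the minus strand (Ccl9 83572917 to 83578636, Ccl6 83587886 to 83593087). Ccl9 was at 50.3, 30.5 and 49.1 FPKM in the Bmal1-knockout libraries against 62.9 and 77.7 in the wild type pair. The groups did not overlap, and knockout 2 was the lowest. Ccl9 fell by 0.65 on the log2 scale (SE 0.24, edgeR adjusted p = 0.0401), from 286 ± 39.0 CPM (SD, n = 2) to 180 ± 45.1 (n = 3). Leaving out knockout 2 (-0.46, adjusted p = 0.212), wild type 1 (-0.81, adjusted p = 0.0876) or wild type 2 (-0.52, adjusted p = 0.390) ended the call, as did DESeq2 (-0.66, adjusted p = 0.177).

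Ccl6 was at 111, 107 and 140 FPKM in the Bmal1-knockout libraries against 174 and 189 in the wild type pair, and the groups did not overlap. Its log2 fold change was -0.55 (SE 0.21) and did not pass (edgeR adjusted p = 0.0548), but it passed under 5 of the alternatives given in the closing section. The Ccl6 and Ccl9 estimates lie within 1 SE of each other, so the call for 1 of them and not the other does not show that they differ. Counts gave 1.00, 1.59 and 1.29 Ccl6 reads per Ccl9 read in the Bmal1-knockout libraries compared with 1.25 and 1.10 in the wild type pair, overlapping ranges.

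Ccl3 and Ccl4, the macrophage inflammatory proteins, which attract monocytes and T cells, were near the limit of detection. Ccl3 (chromosome 11, 83647843 to 83649378) had 4, 3 and 1 counts in the Bmal1-knockout libraries compared with 2 and 2 in the wild type pair, a ratio of 1.20 with an exact interval of 0.323 to 5.47. Ccl4 (83648624 to 83664683) had 1, 0 and 0 against 6 and 1, a ratio of 0.0861 with an exact interval of 0.00190 to 0.670. Of the 7 wild type counts 6 came from wild type 1, and without that library the interval was 0.00360 to 22.2. Neither was tested by edgeR. The RefSeq span of Ccl4 overlaps that of Ccl3 on the other strand, though the exons of GENCODE M21 do not overlap.

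Of the chemokines made by both macrophages and activated stromal cells, Ccl2 and Ccl7 are neighbours on chromosome 11 (82035577 to 82037452 and 82045712 to 82047525), 8.26 kb apart, and share the monocyte receptor Ccr2. Ccl2, the main monocyte attractant, was at 66.5, 57.9 and 72.7 FPKM in the Bmal1-knockout libraries compared with 83.3 and 45.1 in the wild type pair. The wild type libraries lay on either side of all 3 knockout libraries. Its log2 fold change was 0.05 (SE 0.41, edgeR adjusted p = 0.946), and the exact ratio of 1.04 had an interval of 0.619 to 1.77, which leaves room for a change in either direction. Ccl7, a relative with a wider choice of receptors, was at 79.5, 83.4 and 73.3 against 42.3 and 43.8 FPKM. The groups did not overlap and each was tight, but the counts were low, 18, 20 and 21 against 10 and 9, and the log2 fold change of 0.90 (SE 0.41) did not pass (edgeR adjusted p = 0.126).

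Cxcl1 and Cxcl2, which call neutrophils through Cxcr2, lie 10.78 kb apart on chromosome 5 (90891245 to 90893121 and 90903899 to 90905938) and carry the shared kappa-B letters shown above. Cxcl1 had 2, 1 and 9 counts in the Bmal1-knockout libraries compared with 9 and 12 in the wild type pair, or 8.28, 3.91 and 29.4 against 35.7 and 54.7 FPKM. Knockout 3 reached the count of wild type 1 but stayed below it per read and length. The exact ratio was 0.344 with an interval of 0.154 to 0.733, and 0.426 (0.165 to 1.15) without wild type 2. Cxcl2 had 1, 3 and 6 counts against 21 and 7, so that wild type 1 held most of the reads. Its ratio was 0.215 with an interval of 0.0932 to 0.456, or 0.404 (0.139 to 1.25) without wild type 1. Both fell short of the filter and were not tested by edgeR. With no filter the log2 fold change of Cxcl2 was -2.14 (adjusted p = 0.00743) and that of Cxcl1 -1.51 (adjusted p = 0.192). Cxcl3, a near copy of Cxcl2 that shares its receptor, had 3, 0 and 1 counts against 13 and 5, a ratio of 0.134 (0.0330 to 0.406), and 5.84% of the 50-base words of Cxcl2 transcripts also occur in Cxcl3, so reads could be placed on the wrong copy. Among the other members Ccl9 shares 1.97% of such words with other genes, none of them a chemokine, and the rest share none.

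**Figure D3:**
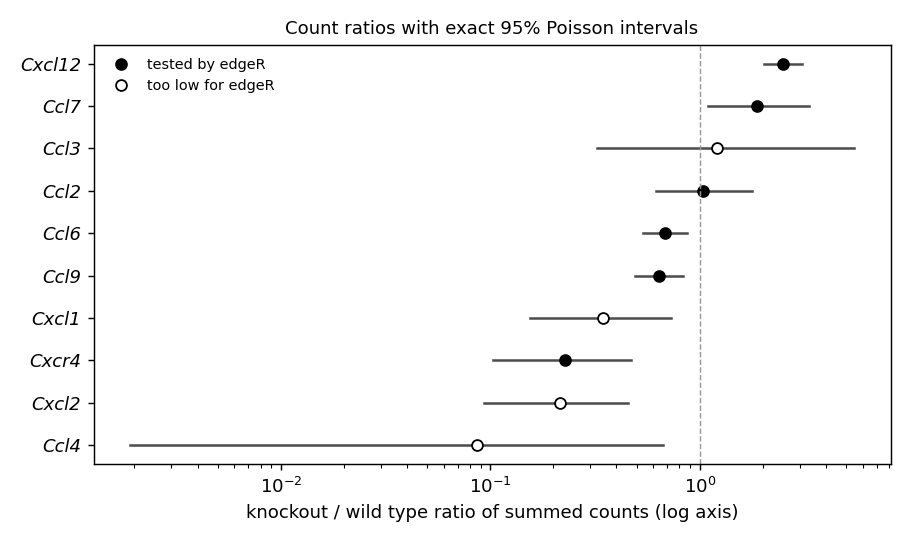
Knockout to wild type ratio of summed counts for each gene on a log axis, with exact Poisson intervals (95%, counting error only); filled points were tested by edgeR and open points were too low. Cxcl12 and Ccl7 lie above 1, the intervals of Ccl2 and Ccl3 include 1, and those of Ccl6, Ccl9, Cxcl1, Cxcr4, Cxcl2 and Ccl4 lie below it.

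In the wild type libraries the order per length began with Ccl6 (182 ± 10.4 FPKM, SD, n = 2) and Cxcl12 (93.0 ± 4.18), which did not overlap each other or the next gene. Ccl9, Ccl2, Cxcl2, Cxcl1 and Ccl7 followed at mean levels of 70.3 to 43.0 FPKM, each overlapping its neighbour in that order, and then Cxcr4, Ccl4 and Ccl3. In the knockout libraries Cxcl12 (232 ± 25.5, n = 3) came before Ccl6 (119 ± 17.8), Ccl7 (78.7 ± 5.10), Ccl2 (65.7 ± 7.43) and Ccl9 (43.3 ± 11.1), with no overlap between neighbours. The last 5, Cxcl1, Ccl3, Cxcl2, Cxcr4 and Ccl4, were all below 14 FPKM on average and overlapped their neighbours. Summed over the 9 ligands, the level was 606, 517 and 613 FPKM in the Bmal1-knockout libraries compared with 608 and 552 in the wild type pair, overlapping ranges. Cxcl12 made up 42.9%, 40.5% and 37.1% of that sum in the Bmal1-knockout libraries, compared with 14.8% and 17.4% in the wild type pair. The 4 ligands made mostly by macrophages summed to 188, 152 and 193 against 284 and 285 FPKM. The 4 made by both kinds of cell summed to 158, 155 and 193 against 234 and 171 FPKM, ranges that overlap.

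Set against markers of cells known to make them, 5 ligands were compared, and the groups overlapped for each. Cxcl1 and Cxcl2, made by both kinds of cell, were set against macrophage markers alone, so the overlap of both holds for that sum only. Their levels per stromal marker, and those of Ccl2 and Ccl7 per either sum, were not compared. Cxcl12 was at 46.1, 41.2 and 48.2 CPM per 1000 CPM of summed stromal markers in the Bmal1-knockout libraries compared with 45.1 and 46.9 in the wild type pair. Ccl6 was at 16.4, 18.6 and 23.6 CPM per 1000 CPM of macrophage markers against 17.4 and 19.1, and Ccl9 at 16.4, 11.7 and 18.3 against 13.9 and 17.4. In each of these the wild type values lay within the knockout range. For Cxcl12 this holds for a sum in which matrix genes weigh heavily. Col3a1 alone was at a mean of 4882 CPM in the knockout and 1874 in the wild type. Cxcl12 per level of the stromal receptors Pdgfra and Pdgfrb, which did not pass the test, was not compared. Cxcl1 was at 0.780, 0.432 and 3.17 against 2.27 and 3.53 per 1000 CPM of macrophage markers, and Cxcl2 at 0.390, 1.30 and 2.12 against 5.31 and 2.06. For Cxcl2 knockout 3 was just above wild type 2, although the mean was 0.344 times as high in the knockout. Cxcr4, which macrophages and other blood cells carry, was at 1.17, 2.59 and 0.705 CPM per 1000 CPM of them in the Bmal1-knockout libraries against 3.79 and 4.12 in the wild type pair, with no overlap and a mean 0.377 times as high in the knockout. The stromal marker sum was 2.53 times and the macrophage marker sum 0.633 times as high in the knockout as in the wild type. What part the mix of cells had in the levels per library was not tested.

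**Figure D4:**
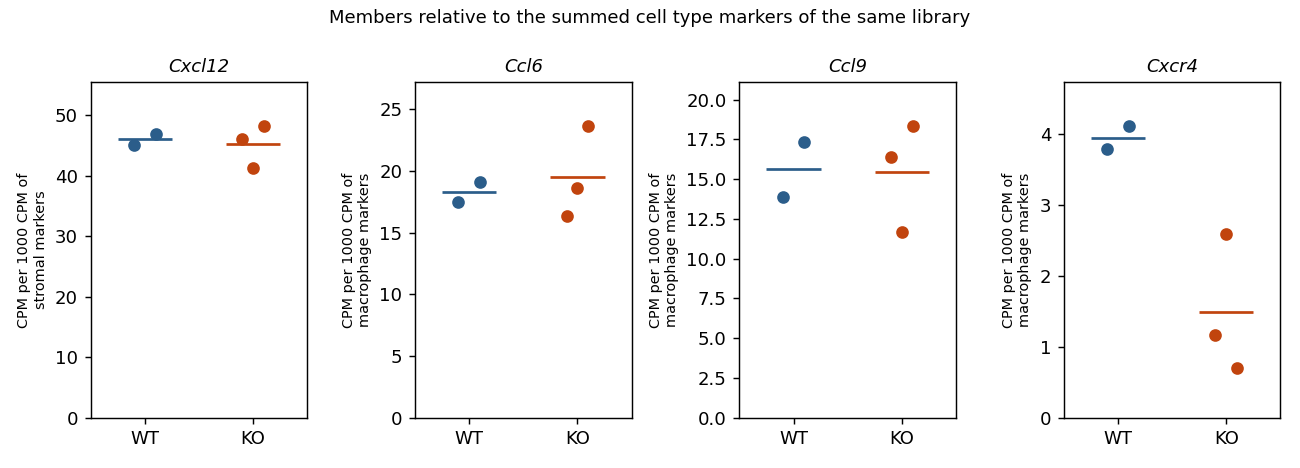
Cxcl12 per 1000 CPM of stromal markers and Ccl6, Ccl9 and Cxcr4 per 1000 CPM of macrophage markers of the same library, with 1 point per library and the group mean as a bar. The groups overlap for Cxcl12, Ccl6 and Ccl9, for Cxcl12 relative to a stromal sum in which matrix genes weigh heavily. All 3 knockout values of Cxcr4 (0.705 to 2.59) are below both wild type values (3.79 and 4.12).

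Of 22 other chemokine receptors examined 19 were listed and 2 tested, and 1 was lower and none higher. Over all tested genes 8.14% were called lower and 8.19% higher. Ccr1, a receptor of Ccl3, Ccl6 and Ccl9 though not of them alone, had 13, 10 and 6 counts in the Bmal1-knockout libraries compared with 21 and 17 in the wild type pair. It fell by 1.10 (SE 0.40, edgeR adjusted p = 0.0413). It did not pass when knockout 2 (-1.15), knockout 3 (-0.78), wild type 1 (-1.05) or wild type 2 (-1.17) was left out, nor with no filter (adjusted p = 0.167) or with limma on log2(FPKM + 1) (adjusted p = 0.163). Xcr1, a receptor of dendritic cells, was at 0.13, short of the threshold (adjusted p = 0.870). Ccr2, a receptor of Ccl2 and Ccl7, had 0, 1 and 0 counts against 4 and 2, a ratio of 0.1004 (0.0022 to 0.828). Cxcr2, the receptor of Cxcl1 and Cxcl2, had 5, 5 and 3 against 7 and 2, a ratio of 0.870 (0.344 to 2.31). The part that the lower macrophage marker sum of the knockout had in these receptors was not tested. Of the 17 receptors too low to test, 3 had an exact interval below 1 (Ccr2, Ccr9 and Ccrl2), none above it and 14 across it. The share of all low genes on either side of 1 was not counted. Such tallies, here and for the lists below, therefore give no direction for a list.

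**Figure D5:**
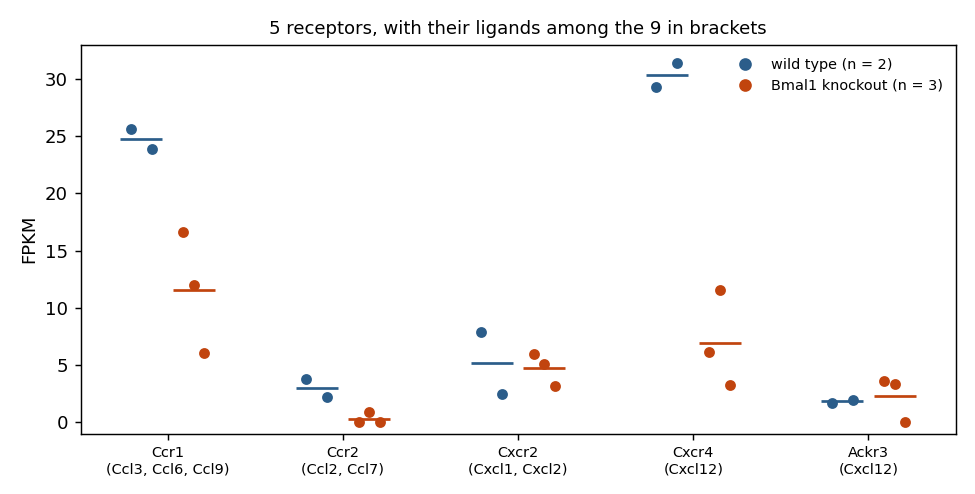
FPKM of 5 receptors of the ligands in each library (wild type blue, knockout orange; bars are group means), with ligands in brackets. The brackets are not a full list, since a ligand such as Ccl7 has a wider choice of receptors. Ccr1, Ccr2 and Cxcr4 are lower in every knockout library than in both wild type libraries, Ccr2 on at most 4 counts a library; Cxcr2 and Ackr3 overlap.

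Of 28 other chemokine ligands 20 were listed and 5 tested. Among these 1 was lower and none higher, beside 8.14% and 8.19% of all tested genes. The median log2 fold change was -0.58, beside 0.01 over all tested genes. Pf4, a platelet chemokine that macrophages can also make, had 43, 45 and 59 counts in the Bmal1-knockout libraries compared with 77 and 63 in the wild type pair, -0.66 on the log2 scale (edgeR adjusted p = 0.0161). It did not pass when knockout 2 (-0.63), wild type 1 (-0.62) or wild type 2 (-0.72) was left out, nor with no filter (adjusted p = 0.0807), DESeq2 (adjusted p = 0.0996) or limma on log2(FPKM + 1) (adjusted p = 0.125). Cxcl14, a chemokine of epithelium and stroma, was at -0.11 and Cxcl16, a transmembrane chemokine of macrophages, at -0.41, and neither passed; 552 exon bases of Cxcl16 lie opposite Zmynd15. No source used here gives the strand setting, so their reads cannot be told apart. Of the 15 ligands too low to test, Cxcl3 and Ppbp, a platelet chemokine with 0, 3 and 1 counts against 7 and 8, had intervals below 1, and 13 had intervals across it; Cxcl3, Ppbp, Ccr9 and Ccrl2 were named after their values were seen. No exon base of the 10 members lies opposite another gene.

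Of 35 genes that carry the signal from chemokine receptors, all were listed and 22 tested. Among these 1 was lower and none higher, beside 8.14% and 8.19% of all tested genes. Prkcd, a protein kinase C, had 11, 16 and 11 counts in the Bmal1-knockout libraries compared with 19 and 29 in the wild type pair and was the 1 called (log2 fold change -1.06, edgeR adjusted p = 0.0268); it did not pass when knockout 1 (-1.003), knockout 3 (-0.90) or wild type 2 (-0.64) was left out, nor with no filter (adjusted p = 0.109), DESeq2 (adjusted p = 0.169) or limma on log2(FPKM + 1) (adjusted p = 0.154). The other 21 did not pass and the median was -0.26. Of the 13 too low to test, 3 had an exact interval below 1 and none above it. These were Ptk2b, a tyrosine kinase, with 3, 3 and 5 counts against 9 and 11 (ratio 0.331, 0.143 to 0.725), Plcb2, a phospholipase C, and Rgs1, a regulator of G protein signalling, all named after their values were seen. Cdc42, a GTPase of cell movement, was at -0.38 (adjusted p = 0.172) and Gnai2, the inhibitory G protein subunit of leukocytes, at -0.17 (adjusted p = 0.679).

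Of 20 genes of the marrow reticular cells that are rich in Cxcl12, 19 were listed and 9 tested. Among these 1 rose and none fell, beside 8.19% and 8.14% of all tested genes. The median log2 fold change was 0.57. Csf1, the growth factor of macrophages, had 43, 50 and 54 counts in the Bmal1-knockout libraries compared with 23 and 17 in the wild type pair, and no knockout library came near the wild type ones. It rose by 1.14 (SE 0.29, edgeR adjusted p = 0.00113), but did not pass when wild type 2 was left out (1.02, adjusted p = 0.0680) or with limma on log2(FPKM + 1) (adjusted p = 0.0521). Spp1, osteopontin, was at -0.02 and Igf1, a growth factor, at 0.57, and neither passed (adjusted p = 0.918 and 0.346). Low niche genes with exact intervals above 1 were Ebf3, a transcription factor of these cells, with 16 knockout counts as 7, 4 and 5 against 1 and 1 (ratio 4.82, 1.13 to 43.2), and Ebf1, its relative, with 11, 4 and 11 against 3 and 2 (3.13, 1.18 to 10.4). Bmp4, a bone morphogenetic protein, had 2, 2 and 5 counts against 0 and 0, with a lower end of the interval of 1.19. The other 7 of the 10 niche genes too low to test had intervals that include 1. Ebf1, Ebf3 and Bmp4 were named after their values were seen.

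Genes whose levels over the 5 libraries lay nearest to a member were found by the root mean square difference of centred log2(CPM + 5) among 2747 tested genes with a mean of at least 50 CPM. The 3 nearest to Cxcl12 were Smim4 (0.0579), Crtap (0.0645), which takes part in collagen prolyl hydroxylation, and Col6a1 (0.0680), a chain of type VI collagen. Col6a1 was at 754, 627 and 696 CPM in the Bmal1-knockout libraries compared with 249 and 298 in the wild type pair. Nearest to Ccl6 were Tyrobp (0.0640), an adaptor of myeloid receptors that is 1 of the macrophage markers used here, Lgals3 (0.0860), a galectin, and H2-D1 (0.0890), an MHC class I chain. Nearest to Ccl9 were Picalm (0.0545), Ddx3x (0.0778) and Gabarap (0.0866). Cxcr4 had more distant neighbours, Mx1 (0.209), an interferon-induced antiviral GTPase, Fos (0.243), an immediate-early transcription factor, and Arg1 (0.321), arginase. Its 3, 6 and 2 knockout counts carry a wide counting error, so these larger distances do not mark its profile as distinct. The libraries fall into 2 groups, so any gene that differs between them by a like amount lies near.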

How the data were processed

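RNA-seq gave 5 libraries. Each library has its own deposited table, with expected counts, FPKM values and lengths for every gene, per the file headers. The submitters' processing notes name HISAT2, StringTie, Bowtie2 and RSEM, and mm10 as the build, without versions or roles. The deposited expected counts of the 10 genes were whole within 0.005 in 49 of 50 values and were rounded; genes that a table does not list were set to 0. The deposited FPKM values and gene lengths were used as given.

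Knockout (3) and wild type (2) were compared by the robust quasi-likelihood test of edgeR 4.0.16 in R 4.3.3, with genotype the only term, after filterByExpr (minimum count 10, total 15) and TMM scaling; p-values were adjusted by Benjamini-Hochberg over 3710 genes, at 0.05. Rows without a symbol (5 of 14161) were left out. The fit was run on simulated counts with the same dispersion of 0.01 for every gene, so that run does not measure false calls at the spread of these libraries. Standard errors come from the quasi-likelihood F. Members below the filter were given exact Poisson ratios with Clopper-Pearson intervals (95%, scipy 1.17.1) and no adjusted p. The limit for 0 was taken as 3 counts. DESeq2 1.42.0, limma 3.58.1, other scalings and filters, log2(FPKM + 1) and each library left out served as alternatives. Coordinates are those of RefSeq on GRCm38.p6, the patched form of the mm10 assembly.

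The 10 genes, the further lists, the markers and the rule for named genes were chosen with earlier results of these data known. The rule names all members, from each further list the genes past the test and the 2 highest that did not pass, and the 3 nearest genes by level for 4 members. Some genes of the further and marker lists are not reported here.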

Additional observations from a re-analysis of the deposited data

How the results depend on the processing

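Cxcl12 stayed past the test in the direction given under all 13 alternatives run with edgeR, DESeq2 and limma, with adjusted p from 5.31e-13 to 0.0398. The count of lower members, 2 with edgeR, was 0 with DESeq2 (which gave Cxcr4 no adjusted p) and 0 with limma on log2(FPKM + 1), and ranged from 0 to 3 with 1 library left out (0 without wild type 1, and 1 without wild type 2, where Cxcl2 was tested and passed). Cxcr4 was also not past the test with voom (adjusted p = 0.0804), and Ccl9 was not with no filter (adjusted p = 0.150). Ccl6 passed with upper-quartile scaling, voom, the stricter filter, the replicate block and without knockout 3 (adjusted p from 0.0209 to 0.0471). Knockout 3 is the only library with replicate number 3, so the block fits much as if that library were left out. Ccl6 was at -0.72 with the block and without knockout 3, and these are not separate checks among the 13. Ccl2 was at -0.027 with the replicate block and between -0.31 and 0.58 with 1 library left out, and the ratio of Ccl3 between 0.877 and 1.68. Of the 4 members too low for edgeR, 3 had an exact unadjusted p under 0.05, and 3 did with any 1 knockout library left out. With a wild type library left out, intervals of Ccl4, Cxcl1 or Cxcl2 reached across 1, as given above. Intervals also reached just across 1 for Ccl4 without knockout 3 (0.003 to 1.07) and for Cxcl1 without knockout 2 (0.201 to 1.0009). The share of all low genes with such a p was not counted, so the count of members has no background to be read against. Over all tested genes 304 were higher and 302 lower; with DESeq2 these were 149 and 131, with limma on log2(FPKM + 1) 64 and 49, and with 1 library left out 144 to 323 and 146 to 287. In the further lists 1 gene was higher and 3 lower; with limma on log2(FPKM + 1) these were 0 and 0, with DESeq2 1 and 0, with the stricter filter or the replicate block 1 lower each (Pf4), with no filter 1 lower (Cxcl3, which the filter removes, while Pf4, Ccr1 and Prkcd did not pass), and with 1 library left out 0 to 1 higher and 0 to 2 lower. Signs of genes that did not pass turned: with 1 library left out Cxcl14 ranged from -0.33 to 0.09, Xcr1 from -0.13 to 0.32, Gnai2 from -0.36 to 0.053 and Spp1 from -0.05 to 0.003, and Spp1 was at 0.001 with no filter and 0.004 with the replicate block. The ligand to receptor ratio kept its direction, at 3.18 to 4.16 on the log2 scale with 1 library left out.

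Replicate numbers 1 and 2 occur in both groups, and deviations of the libraries with the same number correlated at -0.007 and 0.026. These values show no pairing but cannot exclude it. Counting error at this depth lowers such correlations, and with 2 wild type libraries they are not independent. With the replicate block Cxcr4 was at -1.74 (adjusted p = 0.0808) and Ccl9 at -0.79 (adjusted p = 0.0223), and 1 member was higher and 2 lower, Ccl6 and Ccl9; Ccr1 (-0.78, adjusted p = 0.304) and Prkcd (-0.90, adjusted p = 0.158) did not pass with it. Depth limits Ccl3, Ccl4, Cxcl1, Cxcl2 and the receptors Ccr2, Cxcr2 and Ackr3, which were too low for edgeR's filter.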
